A study of Mus musculus with 9 samples.

Results

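Gangliosides and related glycosphingolipids are sugar chains built on the lipid ceramide, and 7 mouse genes that make or break them down were followed here in CD8 T cells in 2 forms of tolerance. The 7 genes were St3gal5, St8sia1 and St6galnac6 of ganglioside synthesis, B3gnt5 and A4galt of the lacto- and globo-series branches, and Gm2a and Galc of lysosomal breakdown. They were listed by name for their place in the pathway, with earlier results of these data known. Each was found as exactly 1 probe set of the array through its RefSeq accession, so the members were 7 of 1246 probe sets, or 7 of the 909 genes that could be named.

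The study used purified CD8 T cells with a transgenic T cell receptor, from female mice of the B10D2 strain, hybridised to 9 single-colour Affymetrix GLYCOv4 arrays, a custom design for glycosylation and immune genes. Naive cells (3 arrays) had not met their antigen and were the control. Deletion cells (3 arrays) had met their cognate antigen in the mouse at a weak signal strength, and anergy cells (3 arrays) at a strong one. The stated aim was to find transcripts of protein glycosylation that differ between cells on their way to deletion and to anergy. Cells of all groups are described as transgenic for a T cell receptor, and no source used here gives the receptor's name, the antigen, the time after antigen, the age of the mice or any pooling of them. The replicates of a group are numbered but not tied to separate animals, so each p-value covers the spread among arrays alone, which may be technical.

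In the Golgi, glucose and then galactose are added to ceramide to give lactosylceramide, the point where the branches part. GM3 synthase (St3gal5) adds a sialic acid and opens the ganglioside branch, GD3 synthase (St8sia1) adds a further sialic acid to GM3 and opens the b-series, B3gnt5 adds GlcNAc and opens the lacto- and neolacto-series, and A4galt adds an alpha-linked galactose and opens the globo-series. In lysosomes the sugars are removed one by one by glycosidases that need small lipid-lifting proteins, among them the GM2 activator (Gm2a), while Galc removes galactose from galactosylceramide. Gangliosides sit in the outer leaflet of the plasma membrane, and in T cells their makeup is known to change with activation; GD3 has also been linked to apoptosis.

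Values are log2 expression on the scale of the deposited table, in which a difference of 1 is a doubling. Array medians lay between 4.44 and 4.58, and replicates of a group correlated at no less than 0.9948 over all probe sets. Anergy replicate 3 had the widest spread around its group (residual SD 0.166, against 0.094 to 0.128 on the other 8 arrays). Naive T cell genes followed the labels at an adjusted p under 0.05 in limma. Of 5 measured, 5 were lower in anergy than in naive cells and 4 in deletion, beside 16.1% and 10.5% of all probe sets. Of 9 activation and effector genes 8 were higher and 1 lower (Ccl5) in anergy, beside 10.8% and 16.1%. In deletion 6 were higher and 0 lower, beside 8.51% and 10.5%. Of 10 T cell identity markers only Cd2 was measured, with group means of 11.58 in naive, 10.01 in deletion and 9.40 in anergy cells. It was 2.97-fold below naive cells in deletion (adjusted p = 1.7e-05, limma) and 4.53-fold below in anergy (adjusted p = 1.04e-06). Deletion cells were 1.53-fold above anergy cells (adjusted p = 0.039). Cd8a and Cd8b1 were not among the named probe sets, so the CD8 label itself was not checked here. Of 10 B cell markers 5 were measured, and their summed linear signal was 629 to 700 in naive, 423 to 594 in deletion and 396 to 452 in anergy arrays. Among them Cd72 was lower and Cd22 higher in both treated groups, and Cxcr5 was higher in deletion cells. Of 5 CD4 and regulatory T cell markers only Il2ra, an interleukin-2 receptor chain that activated T cells also carry, was measured; it was 2.24-fold higher in anergy than in naive cells (adjusted p = 2.68e-05, limma) and 2.07-fold higher than in deletion cells (adjusted p = 0.000525). The part of other cells in the results was not tested. In RNA from whole populations, fewer cells of a type and less RNA per cell cannot be told apart.

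The plot of the 7 genes by array shows the main pattern, a stepwise loss of the GD3 synthase transcript. A change was called past the threshold at a Benjamini-Hochberg adjusted p under 0.05 over the 1246 probe sets in limma, and errors of a difference are standard errors (SE). Against naive cells, anergy cells had 3 of the 7 genes higher (St3gal5, St6galnac6, B3gnt5) and 3 lower (St8sia1, Gm2a, Galc), beside 10.8% of all probe sets higher, 16.1% lower and 26.8% in either direction. Deletion cells had 1 higher (B3gnt5) and 2 lower (St8sia1, Galc), beside 8.51%, 10.5% and 19.0%. Between the treated groups, deletion cells had 2 higher (St8sia1 and Gm2a), beside 2.09% of all probe sets, and 0 lower, beside 1.28%; in either direction 3.37% passed. That 0 became 1 (St3gal5) at an unadjusted p under 0.05. Here and below, the share of all probe sets at an unadjusted p was not counted, so such counts stand without a background. In a moderated F-test over the 3 groups 6 of the 7 genes differed, all but A4galt, beside 24.6% of all probe sets.

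**Figure D1:**
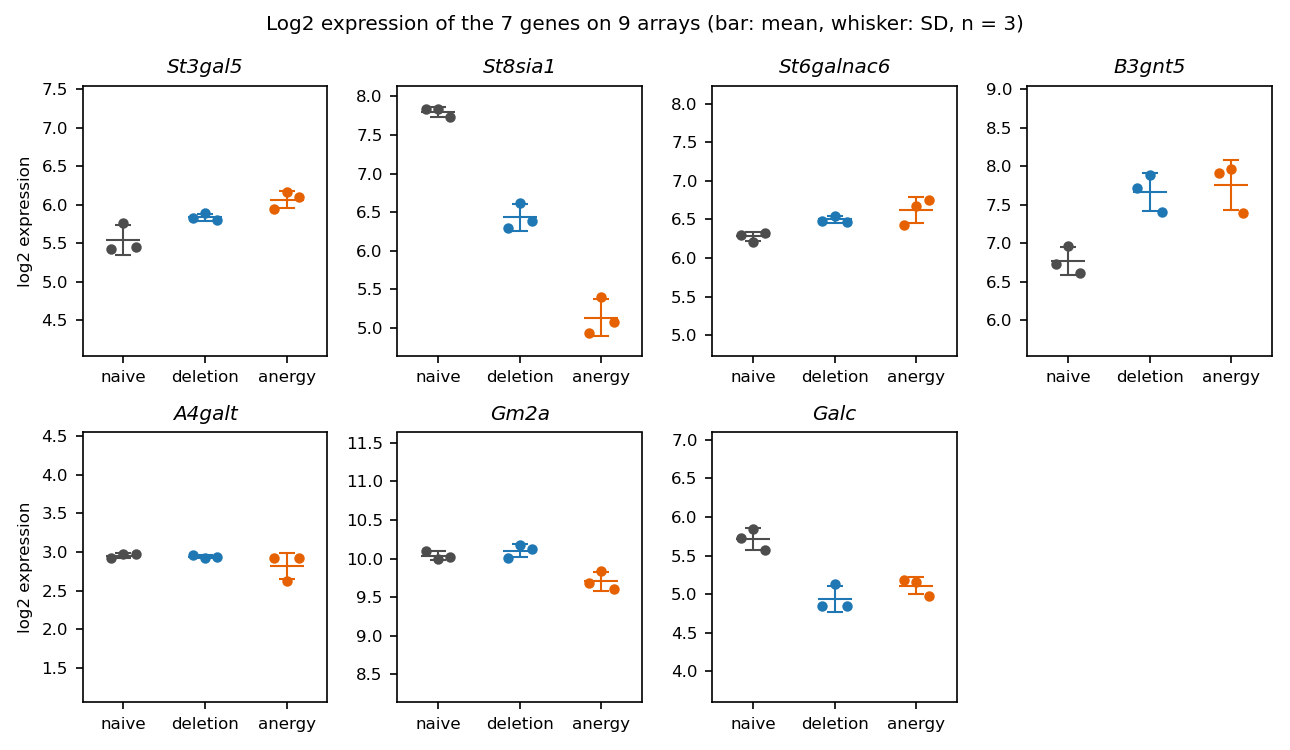
Log2 expression of the 7 genes on each of the 9 arrays; every panel spans the same number of log2 units, points are arrays, bars group means and whiskers the SD (n = 3). St8sia1 falls from 7.80 in naive to 6.43 in deletion and 5.13 in anergy cells, while A4galt stays between 2.63 and 2.97.

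The stretches of DNA just upstream of the start sites are shown for the 4 genes with the largest change between naive and anergy cells, 2 that fell (St8sia1, Galc) and 2 that rose (St3gal5, B3gnt5). They come from RefSeq on the GRCm38.p6 build, are written 5′ to 3′ on the gene's strand, and stop at the start site or, for St3gal5 and B3gnt5, where the annotated gene begins. Capitals mark the GC box (GGGCGG) and the CCAAT box (CCAAT), each on either strand.
St8sia1, chr6:142964453-142964702, minus strand, inside the span of longer annotated transcripts of the gene: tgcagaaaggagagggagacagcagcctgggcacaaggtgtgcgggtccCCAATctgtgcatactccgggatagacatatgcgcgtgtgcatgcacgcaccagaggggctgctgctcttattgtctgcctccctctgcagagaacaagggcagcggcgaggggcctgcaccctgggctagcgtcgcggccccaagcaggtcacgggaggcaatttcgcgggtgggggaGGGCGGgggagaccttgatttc
Galc, chr12:98259460-98259709, minus strand: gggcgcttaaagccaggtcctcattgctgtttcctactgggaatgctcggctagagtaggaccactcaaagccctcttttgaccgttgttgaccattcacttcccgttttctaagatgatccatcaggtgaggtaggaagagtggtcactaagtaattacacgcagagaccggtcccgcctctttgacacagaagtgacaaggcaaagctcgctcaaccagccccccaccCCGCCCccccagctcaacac
St3gal5, chr6:72097358-72097551, plus strand: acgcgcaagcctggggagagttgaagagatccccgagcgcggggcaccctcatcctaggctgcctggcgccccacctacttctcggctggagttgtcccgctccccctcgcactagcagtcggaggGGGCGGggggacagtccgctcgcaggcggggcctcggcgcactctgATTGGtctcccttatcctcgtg
B3gnt5, chr16:19759984-19760191, plus strand: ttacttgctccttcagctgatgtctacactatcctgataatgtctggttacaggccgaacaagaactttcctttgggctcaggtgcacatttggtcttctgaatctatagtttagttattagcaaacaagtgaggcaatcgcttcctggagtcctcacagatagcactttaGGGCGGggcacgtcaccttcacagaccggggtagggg

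All 7 genes had a window in the RefSeq table, and the counts that follow cover the 250 bases before the start site. GC boxes were found in 6 of the 7 windows, all but St6galnac6, with 5 in Gm2a, 3 in A4galt, 2 each in St3gal5 and B3gnt5, and 1 each in St8sia1 and Galc. For St3gal5 and B3gnt5, 1 of the 2 lies past the end of the printed stretch, nearer the start site. Of 32851 windows of that length in the table, 32.7% held a GC box. The members' windows had a GC content of 51.2% (B3gnt5) to 71.6% (St3gal5), beside a median of 52.4% and quartiles of 45.2% and 61.2% over all windows. The GC box counts were not adjusted for it. A CCAAT box was in 2 of the 7 windows, those of St8sia1 and St3gal5, which is near the share over all windows (33.8%). None of the 7 windows held TATAAA (12.4% of all windows), the E-box CACGTG (6.02%) or the NFAT core TGGAAA (18.6%), and A4galt alone held the AP-1 sequence TGANTCA (6.75%). Both strands were searched, and no match of one motif overlapped a match of another. These letters describe the windows and do not mark bound sites.

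St8sia1 lost most of its signal with antigen, and more of it after the strong signal. Naive replicates 1 to 3 read 7.84, 7.84 and 7.73, deletion replicates 6.29, 6.62 and 6.38, and anergy replicates 4.93, 5.40 and 5.07. The 3 groups did not overlap, and the gaps between neighbouring groups (1.11 and 0.89) were wider than any group's own range. Deletion cells were 2.59-fold below naive cells (95% limits 2.14 to 3.14; adjusted p = 2.31e-05, limma, n = 3 per group), which is 38.6% of the naive level. Anergy cells were 6.36-fold below naive cells (5.26 to 7.70; adjusted p = 1.15e-07), or 15.7% of that level. Deletion cells were 2.46-fold above anergy cells (2.03 to 2.97; adjusted p = 0.000368), so all 3 steps in the order naive, deletion, anergy were past the threshold. Only 2.01% of the 1246 probe sets had a wider range over the 9 arrays than its 2.91 log2 units. The probe set carries the suffix s, which marks probes that can bind more than 1 transcript.

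St3gal5, the enzyme just before it in the pathway, moved the other way. Its values were 5.42, 5.77 and 5.45 in naive, 5.83, 5.89 and 5.80 in deletion, and 5.94, 6.16 and 6.10 in anergy replicates 1 to 3. The groups did not overlap, though deletion cells lay only 0.03 above the highest naive array and 0.05 below the lowest anergy array. Anergy cells were 1.43-fold above naive cells (95% limits 1.23 to 1.67; adjusted p = 0.00268 in limma). The neighbouring steps did not pass: deletion against naive was 0.29 ± 0.099 on the log2 scale (SE; adjusted p = 0.0719), and deletion against anergy was -0.23 ± 0.099 (adjusted p = 0.318). Without naive replicate 2, the highest naive array, the step from naive to deletion was 0.41 with an adjusted p of 0.00895.

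St6galnac6, a sialyltransferase that adds alpha-2,6-linked sialic acid to the inner part of ganglioside chains, differed little. It read 6.30, 6.21 and 6.33 in naive, 6.48, 6.55 and 6.47 in deletion, and 6.43, 6.68 and 6.75 in anergy cells. Both treated groups lay above all naive arrays and overlapped each other. The rise in anergy over naive cells was 0.34 ± 0.085 on the log2 scale (SE; adjusted p = 0.0132, limma), and it did not pass without naive replicate 2 (0.0566) or anergy replicate 2 (0.051). Deletion cells were 0.22 ± 0.085 above naive cells (adjusted p = 0.122) and 0.12 ± 0.085 below anergy cells (adjusted p = 0.537), neither past the threshold.

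Because each array carries all the probe sets, the unequal change of neighbouring enzymes can be followed within an array, where the scaling of the array cancels. The log2 signal of St8sia1 minus that of St3gal5 was 2.42, 2.07 and 2.28 in naive, 0.46, 0.73 and 0.58 in deletion, and -1.01, -0.76 and -1.03 in anergy replicates 1 to 3. Its absolute size depends on the probes, and only its change between groups can be read. The change was -1.67 ± 0.128 (SE) for deletion against naive cells, -3.19 ± 0.134 for anergy against naive cells and 1.52 ± 0.117 for deletion against anergy. The groups did not overlap in any of the 3 comparisons. St8sia1 and St3gal5 had each separated in all 3, in opposite directions. The lack of overlap of their difference therefore followed from the single genes and is no further support. B4galnt1, the GM2 synthase, competes with St8sia1 for GM3, and its own transcript did not pass in any comparison (0.04 ± 0.104 for deletion against naive, -0.16 ± 0.104 for anergy against naive). The change in St8sia1 minus B4galnt1 was -1.41 ± 0.135 in deletion and -2.51 ± 0.214 in anergy against naive cells, and its groups did not overlap. B3gnt5 and St3gal5 both use lactosylceramide, and the change in their log2 difference was 0.60 ± 0.125 for deletion against naive cells without overlap, and 0.47 ± 0.21 for anergy against naive cells with overlap. The 2-sided exact permutation test of 3 against 3 arrays cannot go below p = 0.1, which was reached in 7 of these 9 comparisons (Benjamini-Hochberg adjusted 0.129); the others, both of B3gnt5 minus St3gal5, had p = 0.2 for anergy against naive (adjusted 0.225) and p = 0.6 for deletion against anergy.

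**Figure D2:**
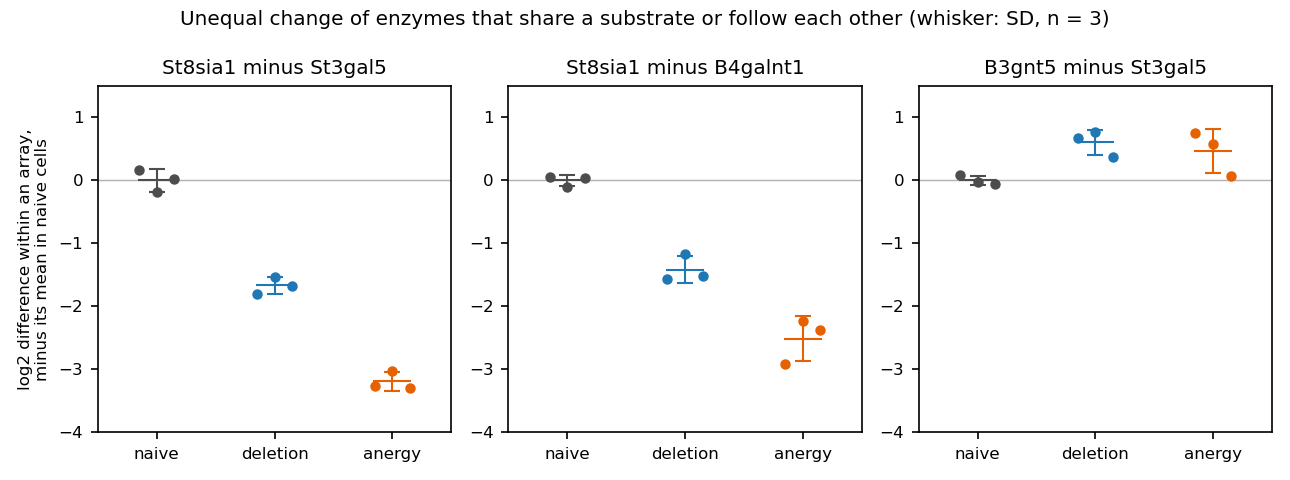
Log2 difference between 2 enzymes' probe sets within each array, shown relative to its mean in naive cells (points: arrays, bars: means, whiskers: SD, n = 3). In anergy cells St8sia1 minus St3gal5 is at -3.19 and St8sia1 minus B4galnt1 at -2.51, and B3gnt5 minus St3gal5 sits between the naive level and about 0.8 above it.

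B3gnt5, which starts the lacto- and neolacto-series chains, was higher in both treated groups to a like extent. Its values were 6.73, 6.97 and 6.61 in naive, 7.72, 7.88 and 7.40 in deletion, and 7.91, 7.97 and 7.39 in anergy replicates 1 to 3. All 6 treated arrays lay at least 0.42 above the highest naive array, and replicate 3 was the lowest array of each group. Deletion cells were 1.86-fold above naive cells (95% limits 1.43 to 2.43; adjusted p = 0.0041, limma) and anergy cells 1.98-fold (1.52 to 2.59; adjusted p = 0.00149). The difference between deletion and anergy was -0.09 on the log2 scale with 95% limits of -0.48 to 0.30 (adjusted p = 0.836). These limits span differences in either direction.

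A4galt, the globo-series enzyme that makes Gb3, stayed near the bottom of the scale. It read 2.92, 2.97 and 2.97 in naive, 2.96, 2.92 and 2.94 in deletion, and 2.92, 2.63 and 2.92 in anergy cells. Its mean of 2.91 put it in the dimmest 33.3% of probe sets, and no comparison passed (adjusted p = 0.968, 0.317 and 0.533 for deletion against naive, anergy against naive and deletion against anergy in limma). Without the low anergy replicate 2, anergy minus naive went from -0.13 to -0.033. At a signal this low a change in the transcript may not show.

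Gm2a, the protein that lifts GM2 out of the membrane for hydrolysis, was lower in anergy cells and about level between naive and deletion cells. Its values were 10.10, 10.00 and 10.02 in naive, 10.01, 10.17 and 10.13 in deletion, and 9.68, 9.84 and 9.60 in anergy replicates 1 to 3. All anergy arrays lay at least 0.16 below every other array, and the naive and deletion arrays overlapped. Anergy cells were at 79.4% of the naive level (-0.33 ± 0.077 on the log2 scale, SE; adjusted p = 0.00856, limma). Deletion cells were 1.32-fold above anergy cells (95% limits 1.17 to 1.48; adjusted p = 0.0226) and differed from naive cells by 0.06 (95% limits -0.11 to 0.24; adjusted p = 0.734). The call between deletion and anergy did not hold without deletion replicate 2 (adjusted p = 0.107), deletion replicate 3 (0.0873), anergy replicate 1 (0.0587) or anergy replicate 3 (0.0503). It was lost as well after median centring (0.0505) and with only the 2 groups in the fit (0.0784).

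Galc, whose loss causes the lysosomal storage disorder Krabbe disease, was lower in both treated groups. It read 5.73, 5.85 and 5.57 in naive, 4.84, 5.13 and 4.84 in deletion, and 5.18, 5.16 and 4.98 in anergy cells. Every treated array lay at least 0.39 below the lowest naive array, and the treated groups overlapped. Deletion cells were 1.72-fold below naive cells (95% limits 1.46 to 2.02; adjusted p = 0.000403, limma) and anergy cells 1.53-fold below (1.30 to 1.79; adjusted p = 0.00134). Deletion minus anergy was -0.17, with 95% limits of -0.40 to 0.06 (adjusted p = 0.469).

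The 2 comparisons with naive cells share the 3 naive arrays, so their values are set side by side here without a measure of likeness. In deletion and anergy cells the log2 differences from naive cells were -1.37 and -2.67 for St8sia1, 0.29 and 0.52 for St3gal5, and 0.22 and 0.34 for St6galnac6. They were 0.90 and 0.99 for B3gnt5, -0.78 and -0.61 for Galc, and 0.06 and -0.33 for Gm2a. St8sia1 and Gm2a were the members whose difference between deletion and anergy was itself past the threshold. Replicates did not overlap for 6 of the 7 genes in anergy against naive cells (33.9% of all probe sets), for 5 in deletion against naive cells (31.5%) and for 3 in deletion against anergy (16.6%).

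**Figure D3:**
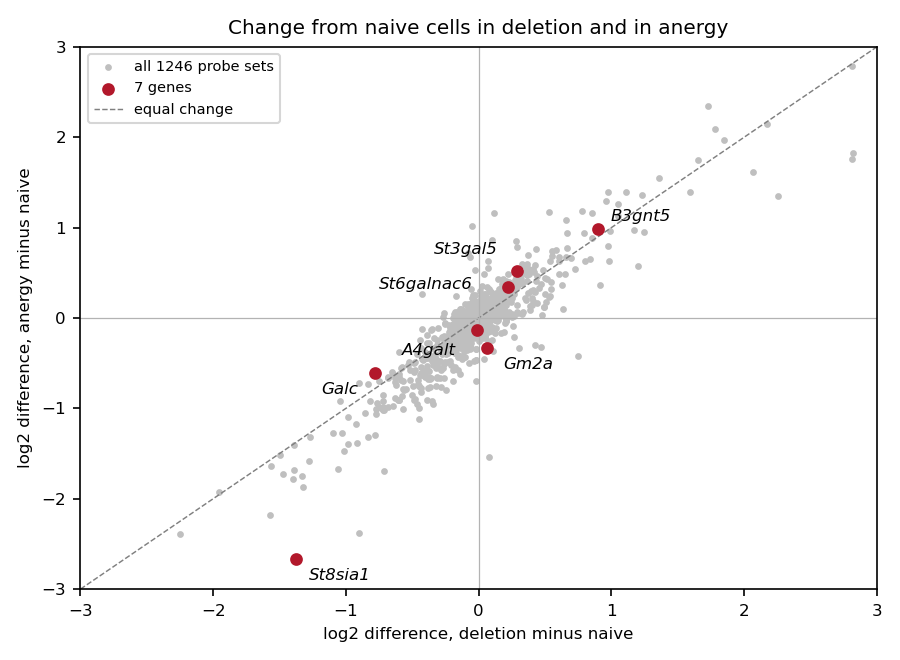
Log2 difference from naive cells in deletion (horizontal) and anergy (vertical) for all 1246 probe sets (grey) and the 7 genes (red); the dashed line marks equal change, both axes share the naive arrays, and 21 probe sets lie outside the axes. St8sia1 lies far below the line (-1.37 and -2.67), and B3gnt5 and Galc lie close to it.

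The other genes of the pathway were taken from lists of textbook membership, 51 genes in all, of which 46 were measured, the 7 members included. In anergy against naive cells 4 of the 46 were higher and 12 lower, beside 10.8% and 16.1% of all probe sets, with a median log2 difference of -0.03 beside 0.007 for all probe sets. In deletion against naive cells 3 were higher and 9 lower, beside 8.51% and 10.5% of all probe sets (median -0.025, beside -0.02). In deletion against anergy 3 were higher and 0 lower, beside 2.09% and 1.28% (median 0.065, beside -0.01). At an unadjusted p under 0.05 in limma 2 were lower in this last comparison.

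Upstream of the members, the lactosylceramide synthase gene B4galt5 rose in both treated groups. Its values were 8.79, 8.90 and 8.71 in naive, 9.92, 9.74 and 9.63 in deletion, and 10.17, 10.16 and 9.97 in anergy cells, with no overlap. It was 1.95-fold higher in deletion than in naive cells (95% limits 1.69 to 2.25; adjusted p = 3.45e-05, limma) and 2.46-fold higher in anergy (2.13 to 2.84; adjusted p = 3.09e-06). Deletion minus anergy was -0.34 ± 0.092 on the log2 scale (adjusted p = 0.0858), which passed with the replicate number as a block (adjusted p = 0.0344). The enzyme also galactosylates glycoproteins. Ugcg, which makes glucosylceramide, did not pass (-0.16 in deletion and -0.23 in anergy against naive; adjusted p = 0.305 and 0.0905), and neither did Ugt8a, Gal3st1 or B4galt6.

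Of 12 measured ganglioside synthesis genes, 2 rose in anergy (St3gal5 and St6galnac6), 2 fell (St8sia1 and St3gal1) and 8 did not pass, beside 26.8% of all probe sets past the threshold in either direction. St3gal1, which caps gangliosides but mainly O-glycans, read 8.91, 9.13 and 9.02 in naive, 8.73, 8.70 and 8.78 in deletion, and 8.54, 8.15 and 8.07 in anergy cells. Its fall in anergy was 0.77 ± 0.115 on the log2 scale (adjusted p = 0.000608). Deletion minus anergy was 0.48 ± 0.115 (adjusted p = 0.054, and 0.00337 without anergy replicate 1). In deletion against naive cells St8sia1 alone of the 12 passed, beside 19.0% of all probe sets.

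Of 12 measured lacto- and neolacto-series genes, B3gnt5 alone rose in anergy and 3 fell: the galactosyltransferases B4galt1 (-0.74 ± 0.101) and B4galt3 (-0.44 ± 0.077), which act mainly on N-glycans, and the fucosyltransferase Fut2 (-0.25 ± 0.068), beside 10.8% of all probe sets higher and 16.1% lower. In deletion cells B4galt1 (-0.62 ± 0.101) and B4galt3 (-0.34 ± 0.077) fell, and B4galt4 rose beside B3gnt5 (0.44 ± 0.137; adjusted p = 0.0494), beside 8.51% of all probe sets higher and 10.5% lower. The rise of B4galt4 held in 3 of 16 alternative settings, with the highest adjusted p of 0.178 without deletion replicate 2. Its signal was low, with means of 3.48 in naive, 3.92 in deletion and 3.64 in anergy cells, below every array median. Fut2 was low as well, with means of 3.77 in naive and 3.52 in anergy cells. The fall of Fut2 did not hold without naive replicate 1 (adjusted p = 0.0826) or 2 (0.0671), or anergy replicate 1 (0.0694) or 2 (0.052). The call rests on the brighter of its probe sets; the other differed by -0.22 ± 0.110 (adjusted p = 0.189). Of the 3 measured globo- and isoglobo-series genes (A4galt, B3galnt1, Gbgt1) 0 passed in any comparison, and 0 did at an unadjusted p under 0.05 in limma.

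**Figure D4:**
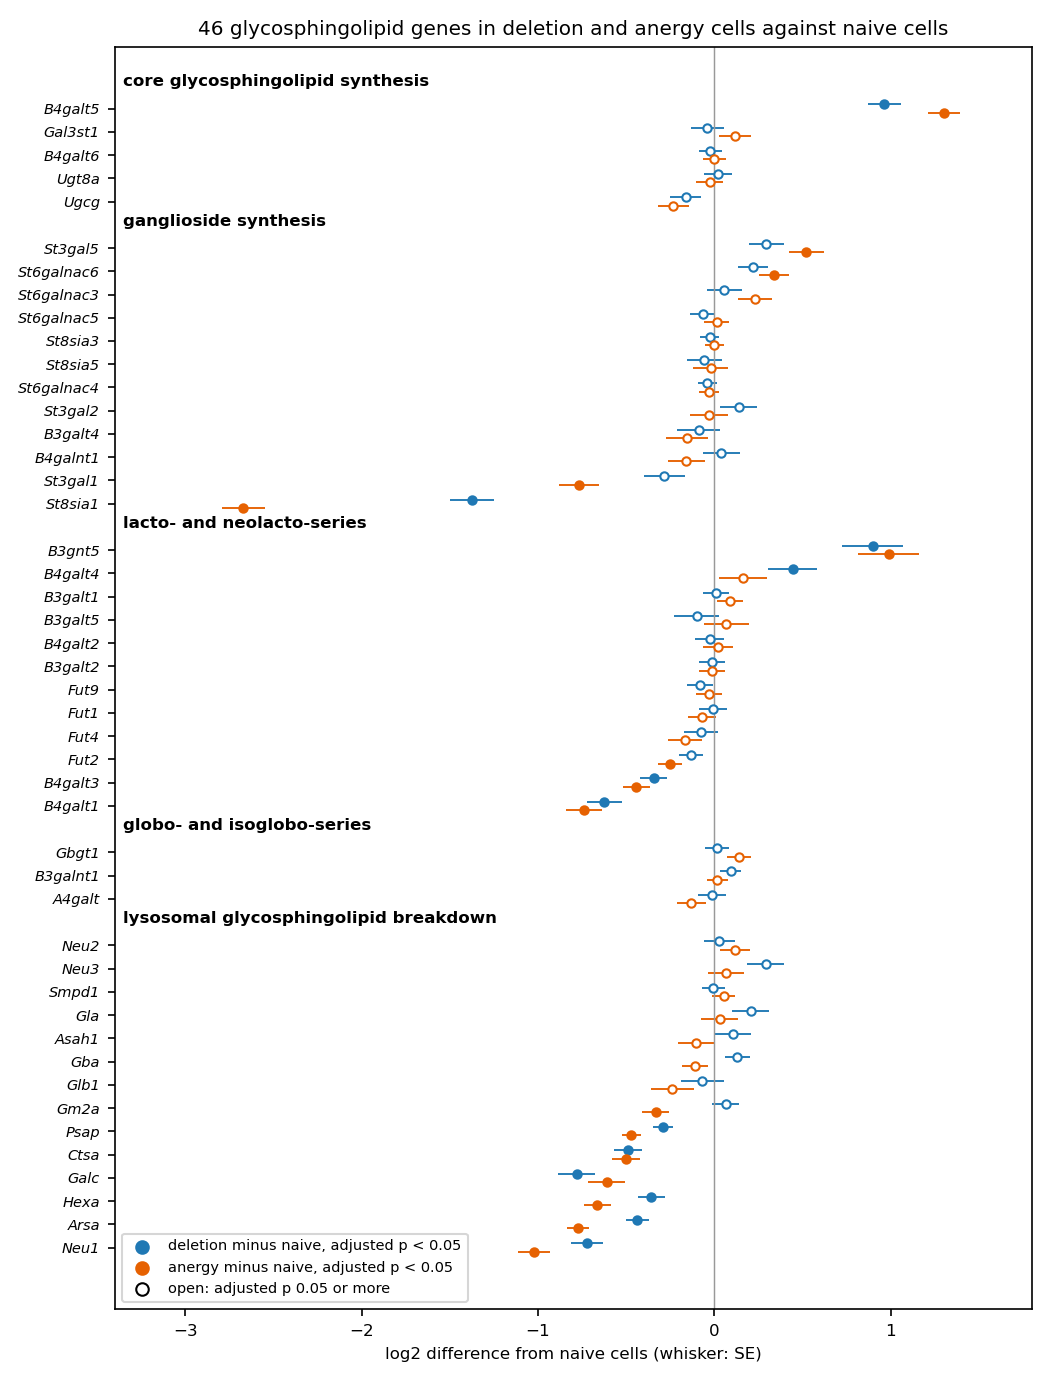
Log2 difference from naive cells, with its SE, in deletion (blue) and anergy (orange) for the 46 measured glycosphingolipid genes by list; filled points passed the threshold. St8sia1 has the largest change, and 7 of the 14 breakdown genes are lower in anergy cells, none higher.

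The breakdown list was the group with most calls. Besides lysosomal glycosphingolipid genes it held the sialidases Neu2 (cytosol) and Neu3 (plasma membrane), and Smpd1, which cleaves sphingomyelin. None of these passed in anergy against naive cells. Of 14 measured genes 7 were lower in anergy than in naive cells and 0 higher, beside 16.1% of all probe sets lower and 10.8% higher (median -0.287, beside 0.007). In deletion 6 were lower and 0 higher, beside 10.5% and 8.51% (median -0.038, beside -0.02). At an unadjusted p under 0.05 in limma 0 were higher in anergy and 1 in deletion. Beside Galc and Gm2a, the genes lower in anergy were Neu1, a lysosomal sialidase (-1.02 ± 0.09), Arsa, which removes sulfate from sulfatide (-0.77 ± 0.065), Hexa, the alpha chain of hexosaminidase A (-0.66 ± 0.078), Ctsa, which protects Neu1 (-0.50 ± 0.081), and Psap, the precursor of the saposins (-0.47 ± 0.056). In deletion cells Galc, Neu1 (-0.72 ± 0.09), Ctsa (-0.49 ± 0.081), Arsa (-0.44 ± 0.065), Hexa (-0.36 ± 0.078) and Psap (-0.29 ± 0.056) were lower; that of Psap was lost after quantile normalization (adjusted p = 0.134). Hexa and Gm2a act together on GM2: Hexa read 8.05, 7.90 and 7.85 in naive, 7.53, 7.60 and 7.60 in deletion, and 7.33, 7.34 and 7.14 in anergy cells, so that unlike Gm2a it was already lower in deletion.

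Between the treated groups Gm2a and Arsa (0.34 ± 0.065; adjusted p = 0.0226, limma) were higher in deletion, beside 2.09% of all probe sets, and 11 of the 14 breakdown genes had a higher mean there, or 78.6%, beside 45.5% of all 909 named genes. The call of Arsa was lost without deletion replicate 1 (0.0655), 2 (0.0981) or 3 (0.0563) or anergy replicate 2 (0.0758), after quantile normalization (0.20 on the log2 scale; 0.0894), with only the groups compared (0.0602) and with trend and robust moderation (0.0694). At an unadjusted p under 0.05 in limma 6 breakdown genes had the higher level in deletion and 0 in anergy. The share of all probe sets at that p was not counted, so whether 6 of 14 is many cannot be said. Lysosomal genes are abundant in macrophages, whose markers were measured for 16 of 25 genes: their summed linear signal was 334 to 339 in naive, 288 to 330 in deletion and 296 to 321 in anergy arrays. Of these markers 1 was higher (Cx3cr1, 0.44 ± 0.073) and 1 lower (Ly75, -0.65 ± 0.103) in anergy than in naive cells. In deletion against naive cells 0 were higher and 1 was lower, again Ly75 (-0.60 ± 0.103). Csf1r, Mrc1 and Adgre1 differed from naive cells by 0.07, 0.27 and 0.26 in deletion. In anergy they differed by -0.26, -0.21 and -0.09, and none of these passed. Between deletion and anergy 0 passed (2 lower in deletion at an unadjusted p under 0.05 in limma), and the median difference was -0.027. Those 2 were Cx3cr1 (-0.29 ± 0.073; adjusted p = 0.0642) and Siglec1 (-0.23 ± 0.069; adjusted p = 0.119). Larger differences went the other way, higher in deletion, for Mrc1 (0.48 ± 0.226), Adgre1 (0.35 ± 0.21) and Csf1r (0.33 ± 0.183). None of these passed, with adjusted p of 0.356, 0.468 and 0.428 in limma. The part of macrophages in the result was not tested.

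By Pearson's r over the 9 arrays, the genes most like St8sia1 were Psap (0.98), Pigp of GPI anchor synthesis (0.98) and the cytokine receptor chain Il27ra (0.97). Psap covers a much smaller span, from 10.48 in naive to 10.19 in deletion and 10.01 in anergy cells. Those most like St3gal5 were Chsy1 (0.95), Psma1 (0.93) and Ssr3 (0.92). For B3gnt5 they were Cd48 (0.98), the sialic acid synthase Nans (0.97) and Txndc12 (0.97), and for Galc they were Galnt2 (0.97), Msmo1 (0.97) and Ythdf1 (0.96). For Gm2a they were Igf1r (0.94), Rpl23 (0.93) and Pfdn5 (0.90), and for St6galnac6 they were Sult1c1 (0.96), Acvr1 (0.91) and Fgf11 (0.88). These correlations share the 3 group differences and array effects, and they are given as a description only.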

How the data were processed

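The values used were the deposited log2 expression values of 1246 probe sets on 9 arrays, which the authors made with RMA, per the submitters' processing notes. No source used here gives its version or a filter. That the scale is log2 follows from RMA and the range of values. No background or detection column was used, so no probe set was called absent, and changes near the lowest values are understated. Precision is limited by having 3 arrays per group, with a median SE of 0.087 for a difference.

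RefSeq accessions named 963 probe sets (77.3%) as 909 genes through a GRCm38.p6 gene table. Where probe sets shared a gene, the brightest on average stood for it. Group means were compared with limma 3.58.1 in R 4.3.3 (lmFit, eBayes; all 9 arrays, no block; 6 residual and 3.65 prior degrees of freedom), two-sided, with Benjamini-Hochberg adjustment over all probe sets and a threshold of 0.05. The fit was tested on simulated data.

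Of the breakdown list, 1 gene is not reported here and stayed out of its counts. The members and gene lists were chosen with earlier results of these data known. Named were the members, all pathway genes past the threshold in any comparison, and for each such member the 3 genes with the highest Pearson r. The within-array differences, and B4galnt1, Ugcg and the other pathway genes named without a call, were added after values were seen. Deviations of same-numbered deletion and anergy arrays correlated at 0.195, 0.27 and 0.28; the labels do not state that pairing, so blocked values are given for that comparison where they change a call. Alternatives tried were quantile normalization, median centring, leaving out the dimmest 33.3% of probe sets, only the groups compared, a replicate block, array weights, trend and robust moderation, and leaving out each array.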

Additional observations from a re-analysis of the deposited data

How the results depend on the processing

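All calls of St8sia1 (3 comparisons), B3gnt5 and Galc (both against naive cells), and St3gal5 and Gm2a (anergy against naive cells) held in each of 16 alternative settings; with the replicate number as a block, the log2 difference of St8sia1 between deletion and anergy stayed 1.30. The 2 members higher in deletion than in anergy became 1 (St8sia1) after median centring and with only the groups compared, and 1 to 2 when single arrays were left out. The 1 member higher in deletion than in naive cells became 2 after quantile normalization, with only the groups compared and with the replicate block, and 1 to 2 without single arrays; the added gene was St3gal5 or St6galnac6, with the block St3gal5 (adjusted p = 0.0271), but the same-numbered arrays of these groups did not deviate together (r = -0.136, 0.118 and -0.142). For deletion against anergy, the 42 probe sets past the threshold became 70 after quantile normalization, 26 after median centring, 21 with only the groups compared, 75 with array weights and 20 to 44 without single arrays. The 3 pathway genes higher became 2 after quantile normalization, median centring or trend and robust moderation, and 1 with only the groups compared. They became 4 with the dimmest probe sets left out or with array weights, and 1 to 4 without single arrays. The 0 lower became 1 (B4galt5) after quantile normalization, with the replicate block or with array weights, and 0 to 1 without single arrays. The block changed no call of a named gene in deletion against anergy beside that of B4galt5. Small uncalled differences between deletion and anergy changed sign: without single arrays B3gnt5 ranged from -0.273 to 0.043 (above 0 without deletion replicate 3, and at 0.017 without anergy replicate 2) and Ctsa from -0.045 to 0.06 (at -0.03 without deletion replicate 2 and -0.045 without anergy replicate 2), and after quantile normalization B4galt1 was at -0.034 and B4galt3 at -0.045. The causes were not tested. A4galt has no value with the dimmest probe sets left out, and all members have 1 probe set, so averaging probe sets could not be tried.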
